A study of Mus musculus with 4 samples.

Results

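The 41 genes described here run the cell division cycle, and all 41 were found by symbol, once each, among the 56748 genes of the deposited table. They fall into 13 genes of DNA replication, 24 genes of mitosis and its control, and 4 genes of the G1 phase. The comparison was between livers of 2 NSG mice given JIB-04 and livers of 2 untreated NSG mice. JIB-04 blocks histone demethylases of the Jumonji family and was given by oral gavage at 55 mg/kg, 5 doses in all and 2 per week. NSG mice lack mature lymphocytes and natural killer cells and are used as hosts for grafts; the genotype field of the labels reads WT for both groups, and sex and age are not analysed here. Untreated mice were not described as gavaged with vehicle, so the drug and the gavage cannot be told apart. The labels give 1 liver sample per library, and n = 2 in each group.

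A dividing cell passes from G1, where cyclin D and cyclin E with their kinases release E2F factors, into S phase, where the MCM helicase loaded by Cdc6 and Cdt1 opens the DNA and nucleotide-making enzymes feed its copying. Cyclin A and then cyclin B with Cdk1 carry the cell into mitosis, and the anaphase-promoting complex with its activator Cdc20 ends it by destroying cyclin B. The genes of the first programme are switched on largely by E2F factors, and those of the second by the MuvB complex with B-Myb and FoxM1. Adult liver is mostly quiescent, hepatocytes are often polyploid, and both programmes return when liver mass is lost.

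Levels are FPKM, reads scaled to gene length and to sequencing depth, as the authors deposited them. Values times gene length were whole multiples of 1 step in every library (100% of values within 0.01), so reads were recovered: 43283827 and 36469514 in JIB-04 1 and 2, and 36793474 and 36878654 in untreated 1 and 2. Hepatocyte markers were high in all libraries, with Alb between 22910 and 46858 FPKM. Near zero was set at an FPKM under 0.1 in all 4 libraries. By that measure 0 of 41 genes were near zero, although 24 had a mean below 1 FPKM, 20 of them mitosis genes. Under 0.1 FPKM in at least 1 untreated library were 6 genes (Aurkb, Cenpf, Foxm1, Mybl2, Bub1 and Cenpe), Aurkb and Cenpf in both, and 0 genes were so in a JIB-04 library. Every one of the 41 averaged at least 10 reads per library; the lowest average was 22.75.

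**Figure D1:**
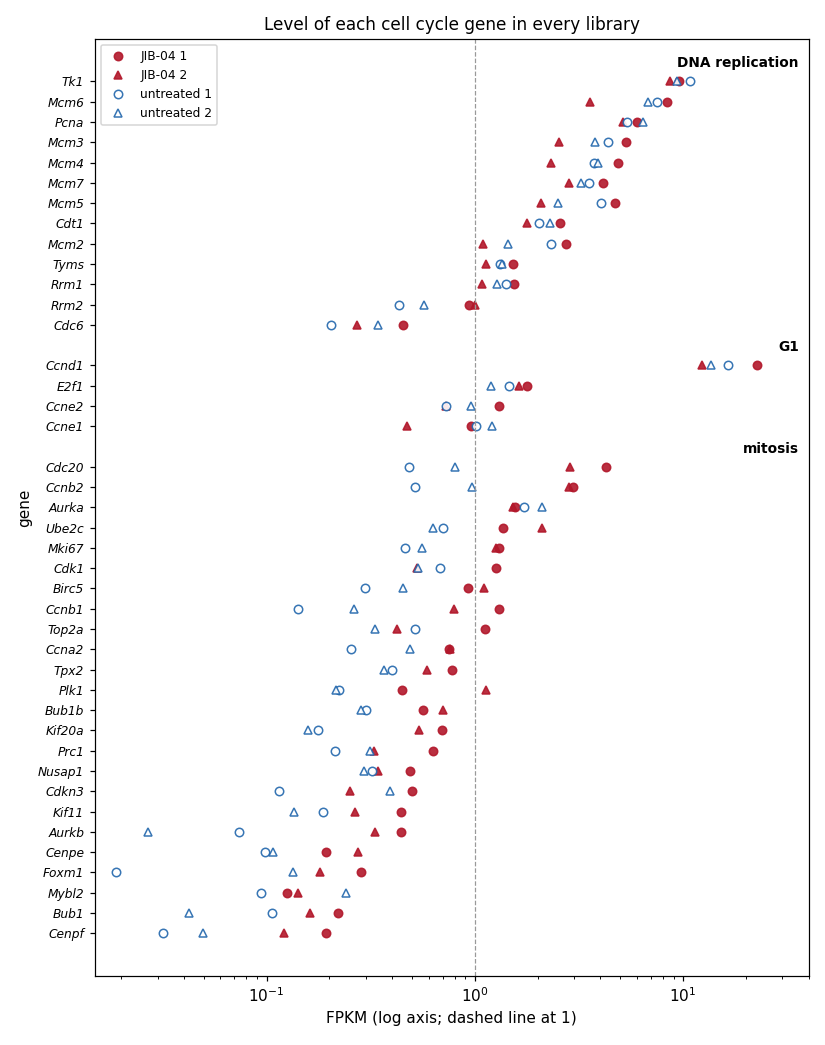
FPKM of each of the 41 genes (rows) on a log axis, in JIB-04 1 and 2 (filled red circle and triangle) and untreated 1 and 2 (open blue circle and triangle), with a dashed line at 1 FPKM. Replication genes lie mostly above 1 FPKM with the groups interleaved, while the red symbols lie right of the blue ones for 19 of the 24 mitosis genes.

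The mitosis genes were more abundant in JIB-04 liver and the replication genes were not. Summed over the 24 mitosis genes, FPKM was 22.8 and 19.6 in JIB-04 1 and 2, against 8.14 and 9.89 in untreated 1 and 2, with group means of 21.2 ± 2.31 and 9.01 ± 1.24 (SD, n = 2 each), a ratio of 2.35. Summed over the 13 replication genes it was 52.7 and 33.5 in JIB-04 1 and 2, against 47.1 and 43.2 in untreated 1 and 2, with means of 43.1 ± 13.6 and 45.1 ± 2.74 (SD, n = 2 each), a ratio of 0.954. The groups are thus apart for mitosis, while both untreated sums of replication genes lie between the JIB-04 sums. The ratio of group means was above 1 for 22 of 24 mitosis genes and for 5 of 13 replication genes, and the median log2 ratio was 1.25 for mitosis and 0.00 for replication, beside 0.00 over the 15879 genes with at least 10 reads on average. Both JIB-04 values exceeded both untreated values for 19 of 24 mitosis genes and 1 of 13 replication genes, where 22.3% of those 15879 genes did. The opposite order held for 1 mitosis gene and 0 replication genes, where 22.2% of all genes did. In bulk liver, more dividing cells and more RNA per dividing cell cannot be told apart. The difference between the replication and mitosis genes was not itself tested.

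**Figure D2:**
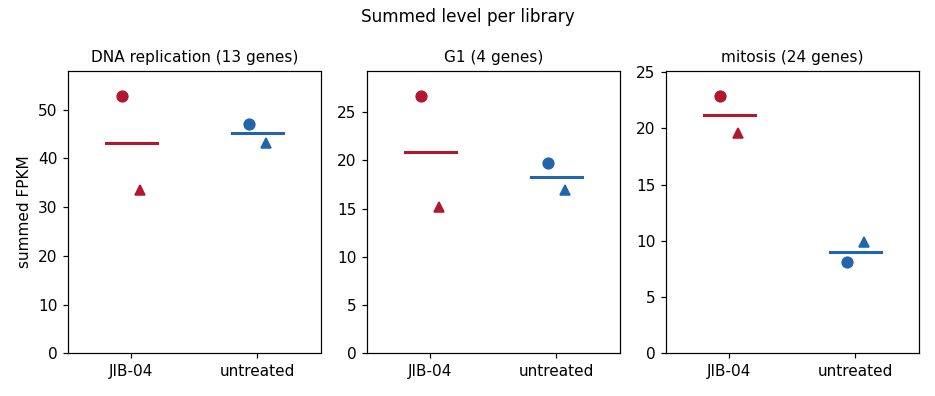
Summed FPKM per library of the 13 DNA replication, 4 G1 and 24 mitosis genes, in JIB-04 (red) and untreated (blue) liver; circles are library 1, triangles library 2 and bars the group means. Only the mitosis panel has groups that do not overlap, at 22.8 and 19.6 against 8.14 and 9.89.

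Single genes were tested with limma on log2(FPKM + 1) over the 10819 genes with a mean of at least 1 FPKM, a scale that understates changes of low genes. Limma called 1.53% of those genes higher in JIB-04 liver and 0.619% lower at a Benjamini-Hochberg adjusted p under 0.05. Since the filter left only 4 mitosis genes, voom (limma with a weight for each count) was also run on recovered reads of all 15879 genes with at least 10 on average, which include all 41. It called 2.24% higher and 1.57% lower. Limma called 2 of the 17 members it tested, Cdc20 and Ccnb2, both higher. Their untreated means, 0.645 and 0.742 FPKM, were under the filter, so both entered the test only through their JIB-04 values. A filter of this kind favours higher calls among low genes, so the count of 2 is no separate support. By voom 5 of 41 rose (Cdc20, Mki67, Ccnb1, Ccnb2 and Kif20a) and 0 fell. All 5 are mitosis genes. Unadjusted voom p was under 0.05 for 16 of 24 mitosis genes and 1 of 13 replication genes, against 14.7% of all genes it tested. An exact permutation test of 2 against 2 animals cannot go below a two-sided p of 1 in 3, so single genes rest on these moderated tests.

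**Figure D3:**
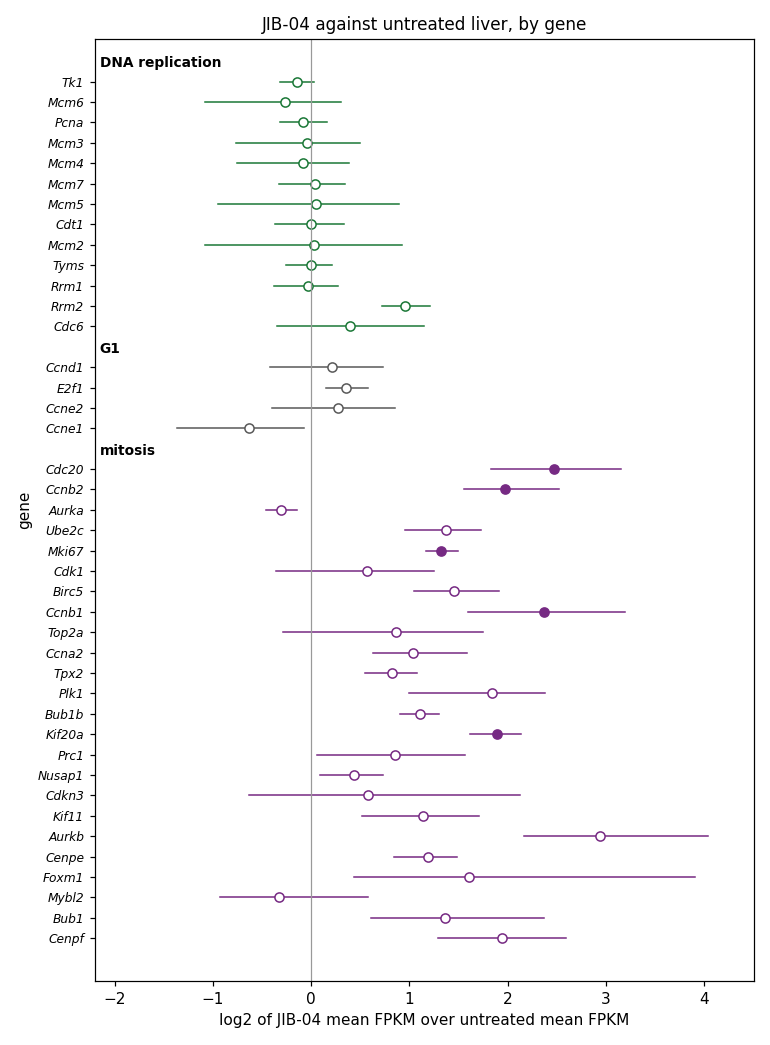
Log2 ratio of the JIB-04 mean FPKM over the untreated mean FPKM for each of the 41 genes (points); lines span the lowest to the highest ratio of any JIB-04 library to any untreated library. Filled points are the 5 genes called by limma or voom. A line that crosses 0 marks a gene whose groups overlap, as for 12 of 13 replication genes and 4 of 24 mitosis genes.

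The promoters of the called genes Cdc20, Ccnb1, Ccnb2 and Mki67 and of the replication genes Mcm5 and Mcm6 are shown. The reason is that the programmes differ in the elements known to drive them. Windows of 250 bases before to 50 after the gene start were available from RefSeq (GRCm38.p6) for 33 of the 41 genes. The called gene Kif20a had no window. The 160 bases before and 10 after the start are given 5′ to 3′ on the gene's strand. They lie at chr4:118437334-118437503 on the reverse strand for Cdc20, chr13:100786477-100786646 on the reverse strand for Ccnb1, chr9:70421545-70421714 on the reverse strand for Ccnb2, chr7:135716370-135716539 on the reverse strand for Mki67, chr8:75109349-75109518 on the forward strand for Mcm5 and chr1:128359696-128359865 on the reverse strand for Mcm6. Capitals mark TTTGAA or TTTAAA (letters of the cell cycle homology region bound by MuvB), CCAAT (the NF-Y box), and TTCGCGC or TTGGCGC (an E2F core), on either strand.
Cdc20: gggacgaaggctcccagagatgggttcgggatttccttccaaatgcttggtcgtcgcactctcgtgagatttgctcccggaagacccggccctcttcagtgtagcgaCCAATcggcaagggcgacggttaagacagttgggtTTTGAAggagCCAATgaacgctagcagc
Ccnb1: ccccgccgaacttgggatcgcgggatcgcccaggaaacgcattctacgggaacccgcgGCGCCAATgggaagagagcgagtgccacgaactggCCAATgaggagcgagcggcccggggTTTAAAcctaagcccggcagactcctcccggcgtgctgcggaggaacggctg
Ccnb2: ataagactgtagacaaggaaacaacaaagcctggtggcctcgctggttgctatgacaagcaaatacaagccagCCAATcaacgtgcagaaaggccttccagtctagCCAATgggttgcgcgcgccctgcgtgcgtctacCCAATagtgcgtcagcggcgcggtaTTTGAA
Mki67: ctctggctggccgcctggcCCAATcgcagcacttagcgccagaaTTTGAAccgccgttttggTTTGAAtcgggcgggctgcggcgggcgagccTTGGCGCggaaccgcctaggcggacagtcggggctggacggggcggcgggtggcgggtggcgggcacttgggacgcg
Mcm5: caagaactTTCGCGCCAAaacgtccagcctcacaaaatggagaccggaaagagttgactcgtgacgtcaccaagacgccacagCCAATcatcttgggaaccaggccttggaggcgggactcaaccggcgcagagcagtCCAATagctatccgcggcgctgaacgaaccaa
Mcm6: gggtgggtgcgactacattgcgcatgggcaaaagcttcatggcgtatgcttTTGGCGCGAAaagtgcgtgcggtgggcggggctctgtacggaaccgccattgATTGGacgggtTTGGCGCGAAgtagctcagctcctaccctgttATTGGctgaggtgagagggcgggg
In Cdc20 a CCAAT began 53 and another 8 bases before the start, with TTTGAA 18 bases before it. Ccnb1 had CCAAT at 99 and 67 bases and TTTAAA at 42 bases before the start, and Ccnb2 had CCAAT at 87, 54 and 21 bases before it with TTTGAA just past it. Mki67 had CCAAT at 141 bases, TTTGAA at 116 and 98 bases and the E2F core TTGGCGC at 67 bases before the start. CCAAT was also present in both helicase genes, at 77 and 22 bases before the start in Mcm5 and, on the opposite strand, at 57 and 14 bases in Mcm6. Mcm6 held the E2F core on both strands in a pair of clusters that begin 109 and 46 bases before the start; TTGGCGC and TTCGCGC overlap there by their shared bases, as they do in Mcm5. A CCAAT of Ccnb1 also overlaps an antisense TTGGCGC.

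Over the full windows, TTTGAA was present in 13 of 19 mitosis genes and 1 of 12 replication genes, against 20.2% of the 27025 genes with a window. TTTGAA or TTTAAA was present in 16 of 19 and 4 of 12, against 30.6%. CCAAT was found in 16 of 19 and 8 of 12, against 41.1%. TTCGCGC or TTGGCGC was found in 3 of 19 mitosis genes (Ccnb1, Cdk1 and Mki67) and 5 of 12 replication genes (Cdt1, Mcm3, Mcm5, Mcm6 and Mcm7), against 4.47%. These are letter matches, not sites shown to be bound.

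The MCM genes encode the ring of 6 subunits that unwinds DNA at origins. Mcm6, the highest of them, was at 8.36 and 3.56 FPKM in JIB-04 1 and 2, against 7.52 and 6.79 in untreated 1 and 2. Mcm3 was at 5.32 and 2.55 in JIB-04 liver, against 4.34 and 3.76 in untreated liver. Mcm4 was at 4.87 and 2.31 in JIB-04 liver, against 3.74 and 3.89 in untreated liver. In all 3, JIB-04 1 was the highest library and JIB-04 2 the lowest. Mcm5 followed the same order, at 4.69 and 2.08 FPKM in JIB-04 liver, against 4.02 and 2.52 in untreated liver. Mcm7 stood at 4.13 and 2.82 in JIB-04 liver, against 3.54 and 3.25 in untreated liver. Mcm2 stood at 2.74 and 1.09 in JIB-04 liver, against 2.31 and 1.44 in untreated liver. Thus each MCM gene had both untreated values inside the range of the JIB-04 pair. Summed over the 6 genes, FPKM was 30.1 and 14.4 in JIB-04 1 and 2, against 25.5 and 21.6 in untreated 1 and 2, with means of 22.3 ± 11.1 and 23.6 ± 2.70 (SD, n = 2 each). Limma log2 changes of the 6 ran from -0.32 (Mcm6, SE 0.379, adjusted p = 0.783) to 0.01 (Mcm7, SE 0.168, adjusted p = 0.986).

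Of the loading factors, Cdt1 was at 2.56 and 1.78 FPKM in JIB-04 1 and 2, against 2.03 and 2.30 in untreated 1 and 2 (limma adjusted p = 0.989). Cdc6, which recruits Cdt1 and the helicase to origins, was low at 0.451 and 0.271 in JIB-04 liver, against 0.203 and 0.344 in untreated liver (voom adjusted p = 0.781). Neither separated the groups. Pcna, the sliding clamp of the polymerases, stood at 6.04 and 5.13 FPKM in JIB-04 liver, against 5.41 and 6.39 in untreated liver.

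The thymidine kinase gene Tk1 was the most abundant replication gene, at 9.52 and 8.66 FPKM in JIB-04 1 and 2, against 10.8 and 9.33 in untreated 1 and 2 (limma log2 change -0.13, SE 0.128, adjusted p = 0.705). Tyms, which makes thymidylate, was at 1.53 and 1.13 in JIB-04 liver, against 1.32 and 1.35 in untreated liver. Rrm1, the large subunit of ribonucleotide reductase, was at 1.54 and 1.09 in JIB-04 liver, against 1.42 and 1.27 in untreated liver. These 3 enzymes had overlapping groups. Rrm2, the small subunit that is made in S phase and destroyed after it, was the exception among the 13. It had 0.943 and 1.0 FPKM (112 and 102 reads) in JIB-04 1 and 2, against 0.433 and 0.573 (44 and 60 reads) in untreated 1 and 2. The groups did not overlap, with a fold of 1.93, but voom did not call it (log2 change 0.94, SE 0.410, unadjusted p = 0.0366, adjusted p = 0.295). Limma called 0 of the 11 replication genes it tested, 0 had an unadjusted p under 0.05, and voom called 0 of 13.

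The JIB-04 animals differed from each other in most of the 13 replication members. All 6 MCM genes, and 12 of 13 replication genes, were higher in JIB-04 1 than in JIB-04 2, with a median ratio of 2.18 for the MCM genes and 1.46 for all 13. In the untreated pair 7 of 13 were higher in library 1, with a median ratio of 1.09. Across the 15879 genes the median ratio was 1.0 in both pairs. Of 42 other replication genes, 26 were higher in JIB-04 1 than in JIB-04 2, with a median ratio of 1.09. Their median ratio in the untreated pair was 1.07. Without JIB-04 1 the mean ratio was above 1 for 1 of 13 replication genes, and without JIB-04 2 for 12 of 13. The direction of these 13 genes therefore depended on which animal was kept. Without JIB-04 1 voom called Mcm6 lower (log2 change -1.01, adjusted p = 0.0355), with the lone JIB-04 library assumed to vary like the untreated pair. The 4 G1 genes were likewise all higher in JIB-04 1 than in JIB-04 2. Of the mitosis genes 17 of 24 were, with a median ratio of 1.33.

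**Figure D4:**
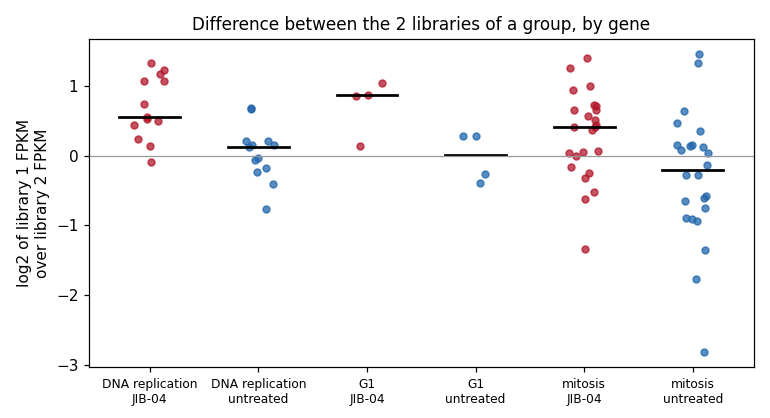
Log2 ratio of FPKM in library 1 over library 2 of the same group, per gene (points), with the median of each set (bars); red is the JIB-04 pair and blue the untreated pair. For replication genes 12 of 13 red points lie above 0, against 7 of 13 blue ones.

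The G1 genes did not move together. Ccnd1, the cyclin D1 gene, was the most abundant of the 41 at 22.6 and 12.3 FPKM in JIB-04 1 and 2, against 16.5 and 13.6 in untreated 1 and 2 (limma adjusted p = 0.881). E2f1, the transcription factor released at the G1 to S passage, was at 1.79 and 1.62 in JIB-04 liver, against 1.46 and 1.20 in untreated liver (adjusted p = 0.541). Its groups did not overlap, whereas those of Ccnd1 did. Ccne2 was at 1.31 and 0.725 FPKM in JIB-04 liver, against 0.726 and 0.954 in untreated liver. Ccne1, the other cyclin E gene, was at 0.964 and 0.471 in JIB-04 liver, against 1.01 and 1.21 in untreated liver (voom log2 change -0.70, SE 0.407, adjusted p = 0.485). Ccne1 and the mitotic kinase gene Aurka were the only members with both JIB-04 values below both untreated values. Voom and limma called 0 of the 4.

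Cdc20 showed the highest limma change of the members. It lies on chromosome 4 (118290098 to 118294549, GRCm39) and had 4.27 and 2.87 FPKM (342 and 197 reads) in JIB-04 1 and 2, against 0.482 and 0.808 (33 and 57 reads) in untreated 1 and 2. Group means were 3.57 ± 0.989 and 0.645 ± 0.231 (SD, n = 2 each), a fold of 5.54 (limma log2 change 1.46, SE 0.193, adjusted p = 0.0195; voom log2 change 2.48, adjusted p = 0.00321). Ccnb2, the cyclin B2 gene on chromosome 9 (70314974 to 70328829), had 2.97 and 2.85 FPKM (195 and 160 reads) in JIB-04 1 and 2, against 0.517 and 0.968 (29 and 56 reads) in untreated 1 and 2. It rose 3.92-fold (limma log2 change 1.18, SE 0.165, adjusted p = 0.0223; voom log2 change 2.01, adjusted p = 0.0132). The lower JIB-04 library of each gene lay more than 2-fold above the higher untreated one. Ccnb1, the cyclin B1 gene on chromosome 13 (100915158 to 100923078), had 1.30 and 0.794 FPKM (235 and 123 reads) in JIB-04 1 and 2, against 0.142 and 0.264 (22 and 42 reads) in untreated 1 and 2. It was under the limma filter and rose 5.16-fold in mean FPKM (voom log2 change 2.38, SE 0.510, adjusted p = 0.0130). All 3 belong to the switch that drives and ends mitosis, cyclin B being the protein that Cdc20 marks for destruction.

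Leaving out 1 library ended some of these calls. Each such fit left a lone library in 1 group, assumed to vary like the pair of the other. Limma called neither Cdc20 nor Ccnb2 without JIB-04 1, JIB-04 2 or untreated 1, and called both without untreated 2. Voom called Cdc20 without any of the 4 libraries in turn (adjusted p between 0.0111 and 0.0472). Its call of Ccnb1 was lost without JIB-04 1 (adjusted p = 0.105) and untreated 1 (0.0993), and that of Ccnb2 without JIB-04 1 (0.0812), JIB-04 2 (0.0635) and untreated 1 (0.156). Limma with a filter of 0.1 FPKM or with none called 0 members, with an unadjusted p under 0.05 for 11 and 10 of them.

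Cdk1, the partner kinase of the B cyclins, did not follow them. It had 1.26 and 0.530 FPKM in JIB-04 1 and 2, against 0.680 and 0.531 in untreated 1 and 2, with JIB-04 2 level with untreated 2 (voom adjusted p = 0.683). Ccna2, the cyclin A2 gene of S and G2 phase, was at 0.754 and 0.760 in JIB-04 liver, against 0.254 and 0.486 in untreated liver (voom log2 change 1.08, adjusted p = 0.215). Ube2c, the ubiquitin-conjugating enzyme that works with the anaphase-promoting complex, was at 1.36 and 2.09 in JIB-04 liver, against 0.703 and 0.631 in untreated liver (limma adjusted p = 0.110; voom adjusted p = 0.0796). Both genes separated the groups but neither was called, and Ccna2 was under the limma filter. Foxm1, a transcription factor of G2 and mitosis genes, had 70 and 38 reads in JIB-04 1 and 2, against 4 and 29 in untreated 1 and 2 (0.284 and 0.180 FPKM, against 0.0190 and 0.133). Its groups did not overlap, but untreated 1 was far below untreated 2. Mybl2, which encodes B-Myb, was at 0.126 and 0.141 FPKM in JIB-04 liver, against 0.0942 and 0.240 in untreated liver. Cdkn3, a phosphatase that acts on Cdk1 and Cdk2, was at 0.502 and 0.253 in JIB-04 liver, against 0.115 and 0.391 in untreated liver. The groups of Mybl2 and of Cdkn3 overlapped.

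The proliferation mark Mki67 (chromosome 7, 135291513 to 135318090), whose protein coats mitotic chromosomes, was close within each pair of animals. It stood at 1.31 and 1.26 FPKM (563 and 465 reads) in JIB-04 1 and 2, against 0.463 and 0.560 (171 and 213 reads) in untreated 1 and 2. It rose 2.50-fold in mean FPKM (voom log2 change 1.31, SE 0.234, adjusted p = 0.00373). With each of the 4 libraries left out in turn its voom log2 change ran from 1.16 to 1.47. Each such fit left a lone library in 1 group, assumed to vary like the pair of the other. Top2a, the topoisomerase that untangles chromosomes, did not separate the groups. Its values were 1.12 and 0.423 FPKM in JIB-04 1 and 2, against 0.514 and 0.332 in untreated 1 and 2 (voom adjusted p = 0.586). With JIB-04 2 left out its voom log2 change was 1.40 (adjusted p = 0.0494), and with JIB-04 1 left out it was 0.03 (adjusted p = 0.981), each with a lone JIB-04 library assumed to vary like the untreated pair.

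Of the 6 genes of mitotic kinases, checkpoint and passenger proteins, 0 were called. In 5 of them both JIB-04 values lay above both untreated ones, against 22.3% of the 15879 genes. Aurkb, the kinase of the chromosomal passenger complex, was at 0.443 and 0.333 FPKM (56 and 36 reads) in JIB-04 1 and 2, against 0.0740 and 0.0270 (8 and 3 reads) in untreated 1 and 2. Its voom log2 change of 2.96 (SE 0.874, adjusted p = 0.0790) was the highest of the 41, as was its SE. Birc5, or survivin, a partner of Aurkb in that complex, was at 0.933 and 1.11 in JIB-04 liver, against 0.297 and 0.451 in untreated liver (voom adjusted p = 0.0738). Both passenger genes were thus higher in each JIB-04 animal, short of the threshold. Plk1, a kinase of mitotic entry, had a wide JIB-04 pair at 0.446 and 1.13 FPKM, against 0.223 and 0.217 in untreated liver. The checkpoint genes Bub1b and Bub1 had folds of 2.16 and 2.57. Aurka, the centrosomal kinase gene, went the other way at 1.56 and 1.52 FPKM in JIB-04 1 and 2, against 1.72 and 2.09 in untreated 1 and 2 (limma adjusted p = 0.584).

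All 7 genes of kinetochore, spindle and cytokinesis had both JIB-04 values above both untreated ones, against 22.3% of the 15879 genes. Voom called 1 of the 7. Its unadjusted p was under 0.05 for 5 of them, against 14.7% of all genes it tested. Kif20a (chromosome 18, 34757666 to 34766330), a kinesin of the central spindle, had 0.699 and 0.540 FPKM (130 and 86 reads) in JIB-04 1 and 2, against 0.176 and 0.159 (28 and 26 reads) in untreated 1 and 2. It rose 3.70-fold in mean FPKM (voom log2 change 1.85, SE 0.50, adjusted p = 0.0497). Its voom call was lost whichever single library was left out, with log2 changes from 1.67 to 2.01. Cenpf, a kinetochore protein, had 127 and 69 reads in JIB-04 liver, against 18 and 29 in untreated liver (voom adjusted p = 0.0711). The folds of the other 5 were 2.27 for Cenpe, the kinetochore motor, 2.20 for Kif11, the motor that separates the poles, 1.81 for Prc1, 1.77 for Tpx2 and 1.35 for Nusap1. Prc1, Tpx2 and Nusap1 bind spindle microtubules.

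Cell cycle genes outside the 41 were read from lists by role, written with earlier results of these data known. Over all genes limma tested, 15.5% had an unadjusted p under 0.05, and the counts at that level below are to be read against this share. Of 50 other genes of mitosis and cytokinesis, 45 had a ratio of means above 1, with a median log2 ratio of 0.83. Both JIB-04 values lay above both untreated ones in 36 of the 50, against 22.3% of the 15879 genes. Limma called 2 of the 16 it tested, both higher, against 1.53% called higher over all genes it tested. Of these 2, Cdca3 passed the filter only through its JIB-04 values, with an untreated mean of 0.426 FPKM. Cdca3, a trigger of mitotic entry, was at 1.71 and 2.44 FPKM in JIB-04 1 and 2, against 0.400 and 0.453 in untreated 1 and 2 (limma adjusted p = 0.0290; voom adjusted p = 0.00532). Cks1b, a small subunit of cyclin-dependent kinases, was at 9.90 and 9.46 in JIB-04 liver, against 5.96 and 5.10 in untreated liver (limma adjusted p = 0.0445; voom adjusted p = 0.0635). Neither limma call held without untreated 1 (adjusted p = 0.102 for both), untreated 2 (0.0641 and 0.179) or JIB-04 1 (0.114 and 0.186), and that of Cks1b was lost also without JIB-04 2 (0.205), where Cdca3 was under the filter. Cks1b missed the threshold also after quantile normalization (0.0529) and rescaling (0.0560). Voom called 4 of 49 higher (Cdca3, Hmmr, Kif2c and Ckap2), against 2.24% of all genes it tested. Hmmr, a spindle protein, averaged 0.673 and 0.133 FPKM in JIB-04 and untreated liver (voom adjusted p = 0.0118), and Kif2c, a microtubule-depolymerizing kinesin, 0.408 and 0.0489 (voom adjusted p = 0.0387). Ckap2, a spindle protein, averaged 1.48 in JIB-04 and 0.525 in untreated liver (limma adjusted p = 0.0651; voom adjusted p = 0.0299). Zwint, a kinetochore protein, averaged 13.8 and 9.64 (limma adjusted p = 0.103).

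Of 42 other genes of the origin complex, replisome and polymerases, 22 had a ratio of means above 1 and 20 below, with a median log2 ratio of 0.05. Limma called 0 of 27, with an unadjusted p under 0.05 for 3, and voom called 0 of 42. The 4 of lowest limma p did not share a direction. Pold2, a polymerase delta subunit, averaged 6.91 and 4.41 FPKM in JIB-04 and untreated liver (limma adjusted p = 0.107). Gmnn, the inhibitor of Cdt1, averaged 5.09 and 3.75 in the same order, Gins1 of the replication fork 2.29 and 3.57, and Rfc2 of the clamp loader 3.51 and 4.69. Among 25 other cyclins, kinases and E2F family genes, 13 were above 1 and 12 below. Limma called 0 of the 19 tested (4 at an unadjusted p under 0.05), and voom called E2f3 higher. E2f3, an activating E2F, was at 3.47 and 2.87 FPKM in JIB-04 1 and 2, against 1.52 and 1.58 in untreated 1 and 2 (limma adjusted p = 0.0573; voom adjusted p = 0.00831). The 3 others of lowest limma p, Cdk4, Cdk7 and Cdk2, averaged 12.7, 3.96 and 1.98 FPKM in JIB-04 liver, against 9.38, 2.87 and 2.76 in untreated liver.

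Genes that restrain the cycle had 5 of 17 ratios above 1 and 12 below, with a median log2 ratio of -0.19. Limma called 0 of 13 (3 at an unadjusted p under 0.05) and voom 0 of 16. The p53 gene Trp53 averaged 5.36 and 3.65 FPKM in JIB-04 and untreated liver (limma adjusted p = 0.123). The inhibitor Cdkn1c averaged 0.791 and 1.72 (adjusted p = 0.162), the antiproliferative gene Btg2 4.53 and 6.97 (adjusted p = 0.223), and the inhibitor Cdkn2c 2.23 and 1.59 (adjusted p = 0.334). Among 18 growth signals of liver regeneration limma called 0 of 13, with 4 at an unadjusted p under 0.05, and voom called Igf1 lower. Igf1, the growth factor that liver releases under growth hormone, was at 61.6 and 69.0 FPKM in JIB-04 1 and 2, against 95.6 and 107 in untreated 1 and 2 (limma adjusted p = 0.0700; voom adjusted p = 0.0197). The early response gene Jun was at 16.1 and 7.81 in JIB-04 liver, against 4.40 and 4.05 in untreated liver (limma adjusted p = 0.203). Ccn1, a target of the YAP pathway, averaged 6.58 and 3.63 in JIB-04 and untreated liver, and the receptor gene Egfr 19.8 and 27.0.

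Markers of other cells that might carry cell cycle RNA are given beside these results. The 8 macrophage and Kupffer cell markers summed to 245 and 300.3 FPKM in JIB-04 1 and 2, against 322 and 274 in untreated 1 and 2. Of their ratios 0 of 8 were above 1, where 7904 of the 15879 genes with at least 10 reads on average had such a ratio. The 7 endothelial markers summed to 74.5 and 79.2 in JIB-04 liver, against 91.7 and 72.4 in untreated liver, and the 8 stellate cell markers to 70.3 and 71.7, against 92.9 and 70.9. The 6 bile duct cell markers summed to 36.1 and 43.8 in JIB-04 liver, against 40.1 and 34.4 in untreated liver. None of these 4 sums was above both untreated values in both JIB-04 animals. Erythroid markers had sums of 674 and 1794 FPKM in JIB-04 liver, against 2961 and 1857 in untreated liver, and the erythroid factor gene Klf1 was at 3.82 and 3.46, against 4.64 and 3.74. The 7 neutrophil markers summed to 44.4 and 71.5 FPKM in JIB-04 1 and 2, against 26.0 and 7.01 in untreated 1 and 2, so this sum, like that of the mitosis genes, was higher in both JIB-04 animals. Among them S100a8 was at 36.3 and 63.0 FPKM in JIB-04 liver, against 6.68 and 2.40 in untreated liver, and S100a9 at 7.51 and 8.45, against 18.7 and 4.01, while Ly6g, Mpo, Elane, Camp and Ltf stayed under 1 FPKM in every library. The 10 hepatocyte markers had 0 ratios above 1, against 7904 of the 15879 genes. Voom called 3 of the 10 lower, against 1.57% of all genes it tested. Alb was at 31689 and 22910 FPKM in JIB-04 liver, against 46658 and 46858 in untreated liver. The part of these marker levels in the mitosis gene result was not tested.

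Some members share sequence with copies elsewhere or overlap a gene on the other strand, and the strand setting of the counting is not given in the sources used here. In GENCODE M21 (GRCm38), runs of 50 bases or more covering 50% of the longest Ccnb1 transcript recur in pseudogenes. The copy of those with most reads, Ccnb1-ps, had 18 and 8 reads in JIB-04 1 and 2, against 6 and 13 in untreated 1 and 2. For Cdc20 the share was 23.4%, with its copy Gm7856 at 0 and 2 reads in JIB-04 liver and none in untreated liver. Pcna shares 44.8% with Pcna-ps2, which held 530 and 230 reads in JIB-04 1 and 2, against 340 and 276 in untreated 1 and 2, so the level of Pcna is uncertain. Mcm7 shares 45.9%, Mybl2 27.1%, Rrm2 17.4% and Plk1 13.6%. The Plk1 copy, Plk-ps1, had 25 and 0 reads in JIB-04 1 and 2, against 16 and 27 in untreated 1 and 2. Plk1 itself had 42 and 91 reads in JIB-04 liver, against 18 and 18 in untreated liver, so its level is uncertain too. For Kif20a 29.3% of exon bases lie under Cdc23 on the opposite strand, which had 1.33 and 1.31 FPKM in JIB-04 liver, against 1.03 and 1.31 in untreated liver. For Ube2c 22.8% lie under Tnnc2, which had no read in any library. Opposite-strand overlap was 23.4% for Ccnd1, 17.4% for Ccne2, 12.5% for Ccna2 and 11.1% for Prc1.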

How the data were processed

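Liver RNA of 2 JIB-04 and 2 untreated NSG mice was extracted with Trizol and made into libraries with a provider's standard kit, as the labels' protocols state. The authors deposited 1 table of FPKM values on GRCm39 (mm39), the build named in the submitters' processing notes; gene lengths and coordinates are deposited columns counted from 1. For aligner, counter, annotation release and strand, nothing is given in the sources used here. Groups follow the sample titles. The members were chosen, and the lists and tests written, with earlier results of these data known.

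Log2(FPKM + 1) of genes with a mean of at least 1 FPKM was tested with limma 3.58.1 in R 4.3.3 (trend and robust moderation, two-sided), with Benjamini-Hochberg adjustment over all genes tested and calls at 0.05. Reads were recovered from FPKM times gene length, and voom was run on genes with at least 10 on average, scaled to library totals. DESeq2 was not used, since the deposited unit is FPKM; edgeR was not used for the same reason. Both tests were also run on simulated libraries with a common spread set for all genes. That check does not cover genes that vary more than this between animals. The named genes are the members with a mean of at least 1 FPKM, those called by either test, Mki67, Top2a, Ccnb1, Cdk1 and Ccna2, and in each list of other cell cycle genes the called genes and the 4 of lowest limma p. The rule named a count model where voom was used; other members are given so that each of the 41 is accounted for. Folds are ratios of group means of FPKM. Depth was 36469514 to 43283827 reads per library. The titles number the libraries 1 and 2 within each group and name no litter or batch.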

Additional observations from a re-analysis of the deposited data

How the results depend on the processing

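Voom called 606 genes in all where limma called 232, and limma called 65 with a filter of 0.1 FPKM and 20 with none. Leaving out single libraries gave 23 to 186 by limma and 259 to 456 by voom (266 without JIB-04 2). edgeR was not used and DESeq2 was not used, so those comparisons were not run, and no mitosis median exists with a filter of 5 FPKM. Among the 41 members limma called 2, against 5 by voom, 0 with filters of 0.1 and 5 FPKM or with none (unadjusted p under 0.05 for 11, 0 and 10), and 0 to 2 without single libraries; voom called 2 to 4 without single libraries. Of the other cell cycle genes limma called 2, against 6 by voom, 1 with neither trend nor robust moderation, 0 with a filter of 0.1 FPKM or none (unadjusted p under 0.05 for 26 in each case), and 0 to 1 without single libraries. The replicate number as a block gave 357 genes by limma, with the same 2 members, and 753 by voom, with 6 members, the sixth being Ube2c (adjusted p = 0.0462); same-numbered libraries shared no deviation (correlation -0.05 across genes). The median log2 change of tested replication members was -0.03 and ran from -0.20 to 0.20 without single libraries. That of the 4 tested mitosis members was 0.94, against 1.56 and 1.20 with pseudocounts of 0.1 and 0.5. It was 0.29 with a filter of 0.1 FPKM and 0.28 with none (more genes, all low). By voom it was 1.21 over 24 genes, and by limma 0.67 to 1.20 without single libraries. Of the 4, Cdc20, Ccnb2 and Ube2c had untreated means under 1 FPKM and passed the filter only through their JIB-04 values. The filter itself thus favours a positive median. Aurka, which passed in both groups, had a limma log2 change of -0.19. The ratio of summed FPKM was 2.14 to 2.61 for mitosis and 0.741 to 1.17 for replication without single libraries, and 2.26 and 0.922 after rescaling without the 50 most abundant and mitochondrial genes. That rescaling left 22 of 24 mitosis and 3 of 13 replication members above a ratio of 1; without single libraries the counts were 19 to 23 and 1 to 12, and 42 to 46 of 50 for the other mitosis genes. Over single named genes and alternatives, 241 results kept their side of the threshold, 34 lost it and none changed sign with a call. Members not called by voom with all 4 libraries gained a call in 3 cases: Ube2c with the block, Mcm6 (lower) without JIB-04 1 and Top2a without JIB-04 2. The cause of these shifts was not tested. With 22 to 57 reads for Cdc20, Ccnb1 and Ccnb2 in untreated libraries, depth limits the precision of their folds. The voom runs with the block or without a library, and the rescaled and single-library-out counts of ratios above 1, were added after seeing the data.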

Other observations

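Other S phase genes, chosen after their values were seen, also differed between the JIB-04 animals. Uhrf1, which guides maintenance methylation of DNA behind the fork, was at 2.20 and 0.537 FPKM in JIB-04 1 and 2, against 0.736 and 0.976 in untreated 1 and 2. The DNA ligase gene Lig1 was at 2.69 and 1.01 in JIB-04 liver, against 2.32 and 2.25 in untreated liver. Gins3, a subunit of the fork helicase, was at 1.06 and 0.251 in JIB-04 liver, against 0.664 and 0.772 in untreated liver. In each of these genes the untreated pair lay inside the range of the JIB-04 pair. Of the whole list of 42 other replication genes, 26 were higher in JIB-04 1 than in JIB-04 2, with a median ratio of 1.09, and 25 were higher in untreated 1 than in untreated 2, with a median of 1.07.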
